A study of Mus musculus with 12 samples.

Results

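The genes described here carry proteins into mitochondria and fold or degrade them there. They were all genes whose symbol starts with Timm or Tomm followed by a digit, together with 14 listed symbols for matrix chaperones, proteases, the presequence peptidase, prohibitins and the intermembrane space oxidoreductase Chchd4. Of the 12393 genes on the array, 34 met this rule, and Phb was the 1 listed symbol without a probe set of its own. Each gene was read from its brightest probe set, and the 34 genes had 66 probe sets between them.

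The study measured RNA from 12 subcutaneous C26 tumours in Balb/c mice aged 6 weeks, with 1 Affymetrix array per tumour and 4 tumours per group. C26 is a murine colon carcinoma line, so the tumours grew in mice of the strain the line came from. Treatment was given on day 8 after inoculation, when tumours had reached about 50 mm3, and tumours were taken 48 h later. The control mice received PBS, a second group received free doxorubicin (Dox), a DNA-intercalating drug that poisons topoisomerase II, and the third received CP-Dox, doxorubicin carried on a chimeric polypeptide. No group received the carrier alone, so carrier and delivered drug cannot be told apart, and the doses are not given in the sources used here.

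Nearly all mitochondrial proteins are made in the cytosol. They enter through the TOM complex of the outer membrane, and then pass to the TIM23 complex with its ATP-driven motor, to the TIM22 complex for carrier proteins, or to small TIM chaperones that shield hydrophobic proteins in the intermembrane space. In the matrix a peptidase removes the targeting presequence, the Hspd1-Hspe1 chaperonin (HSP60 and HSP10) folds the protein, and the proteases Lonp1 and ClpXP remove what fails to fold.

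The tumours differed in their content of other tissue. The mean of 16 skeletal muscle markers, relative to the PBS mean on the log2 scale, ran from -2.62 to 3.46 among PBS tumours. It was 1.60 in Dox replicate 2 against -2.51 to -2.49 in the other Dox tumours. In CP-Dox replicates 1 to 4 it was -0.42, 0.69, 1.80 and 1.89, within the PBS range. The median log2 fold change of these markers was 0.998 for CP-Dox against PBS and 2.13 for CP-Dox against Dox. In both comparisons 0 of the 16 markers passed a limma adjusted p of 0.05. A set of 15 skin and keratinocyte markers averaged 2.59 in CP-Dox replicate 1 and 3.88 in CP-Dox replicate 3, and lay between -0.17 and 0.12 elsewhere. CP-Dox replicate 2 stood apart in its proliferation markers (-1.68, where its group otherwise spanned -0.42 to -0.27) and in its T and natural killer cell markers (-1.41, where the rest of the group spanned 0.94 to 1.37). Its mean correlation with the other CP-Dox arrays was 0.948, below the 0.971 to 0.977 of the others. Among colon epithelium markers the keratin Krt8 read 9.47 to 11.28 in PBS tumours, whereas the intestinal regulator Cdx2 read 5.07 to 5.41 and the brush border gene Vil1 4.24 to 4.48, near the low end of the array. In whole tumours, fewer cells of a type and less RNA per cell cannot be told apart.

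The import and chaperone genes were lower after CP-Dox than after PBS in 8 cases and higher in none. Timm8a1 fell to 47.7% of its PBS level, Timm9 to 53.4%, Timm50 to 62.0%, Hspd1 to 62.9%, Hspe1 to 66.7%, Tomm40 to 67.8%, Timm13 to 75.5% and Phb2 to 79.3%. These were 23.5% of the 34 genes, where 3.23% of all 12393 genes were called lower and 2.35% higher by limma at an adjusted p under 0.05. Most of the 34 genes were bright, 32 of them above the median signal of all genes. With the dimmest 40% of genes left out, limma called 9 of the 33 remaining members lower, beside 5.9% of all genes kept. The fitted sign was negative for 33 of 34 genes, against 55.9% of all genes, and the median log2 fold change was -0.27 against -0.04. A negative sign was not particular to the 34 genes. It was found in 91.9% of mitochondrial ribosomal protein genes and 88.6% of oxidative phosphorylation subunits. In 10 genes (29.4%) every CP-Dox tumour lay below every PBS tumour, which held for 7.75% of all genes, and in 0 of the 34 the order was the opposite, which held for 4.31%.

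**Figure D1:**
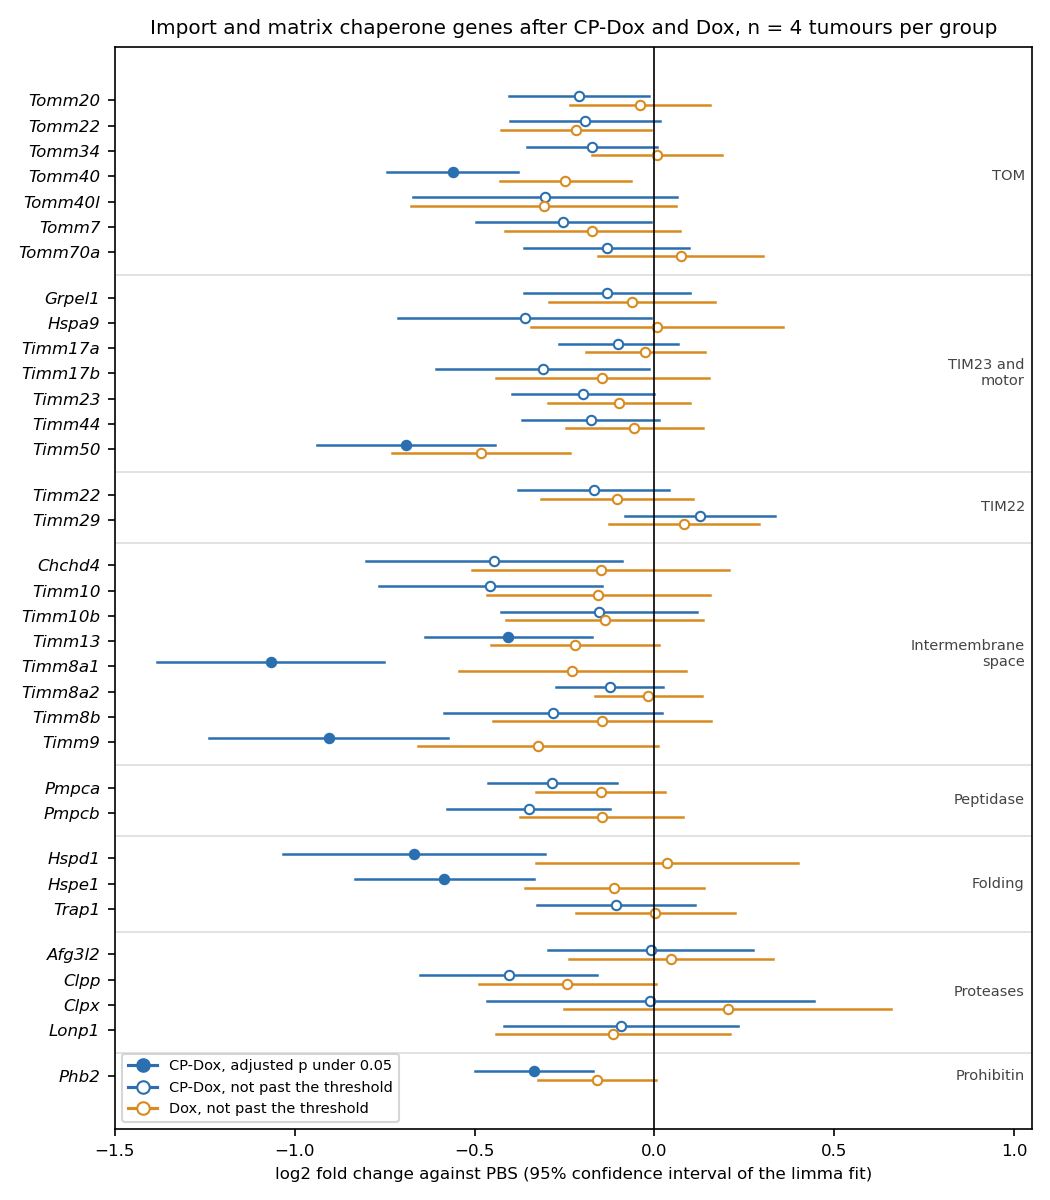
Log2 fold changes of the 34 genes against PBS, with 95% confidence intervals of the limma fit, for CP-Dox and Dox (n = 4 tumours per group), grouped by role. After CP-Dox the values run from -1.07 (Timm8a1) to 0.13 (Timm29), and 8 genes pass the adjusted p of 0.05; after Dox none does.

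Other marker lists differed between the same groups. All 18 proliferation markers had a negative sign after CP-Dox, with a median log2 fold change of -0.73, and 2 fell; in 9 of them every CP-Dox tumour lay below every PBS tumour. Their mean lay between -1.68 and -0.27 in CP-Dox tumours and between -0.23 and 0.18 in PBS tumours. Of 9 endothelial markers 3 rose and 0 fell, with a median of 0.56, and their mean lay between 0.52 and 0.70 in CP-Dox tumours and between -0.29 and 0.16 in PBS tumours. The part of endothelial content in the values of the 34 genes was not tested.

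The count of 8 moved with single tumours. It was 4 without CP-Dox replicate 1 or 3, where 1.21% and 1.14% of all genes were called lower. It was 5 without CP-Dox replicate 4, PBS replicate 1 or PBS replicate 3 (1.29% to 1.91% of all genes). Without CP-Dox replicate 2 it was 15, where 9.17% of all genes were called lower. Timm8a1, Timm9, Timm50 and Tomm40 stayed past the threshold whichever of the 12 arrays was left out. With both skin-bearing CP-Dox tumours left out, limma called 0 of the 34 genes, and only 2 of all 12393 genes on the lower side. The log2 fold changes of the 8 genes then ran from -0.88 to -0.27. With the skin marker mean as a covariate 1 of the 34 genes, Timm8a1, was called, where 0.234% of all genes were called lower.

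The intermembrane space chaperones held the 2 steepest falls. The small TIM proteins form ring-shaped hexamers, Timm9 with Timm10 and Timm8a1 with Timm13, that escort membrane proteins between the TOM complex and the inner membrane. Of 8 measured genes of this role 3 fell, with a role median of -0.43.

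Timm8a1, on the X chromosome and known for its human counterpart's part in a deafness-dystonia syndrome, had log2 signals of 10.18, 10.08, 10.51 and 10.32 in PBS replicates 1 to 4. The Dox tumours read 9.88, 10.12, 10.02 and 10.15, and the CP-Dox tumours 9.05, 9.62, 8.98 and 9.17. All CP-Dox values lay below all others, with replicate 2 the highest of them, and the Dox and PBS ranges overlapped. The log2 fold change of CP-Dox against PBS was -1.07 ± 0.14 (SE, limma adjusted p = 0.00394).

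Timm9 read 7.33, 7.61, 7.70 and 7.74 in PBS tumours, 7.07, 7.21, 7.50 and 7.29 in Dox tumours, and 6.34, 7.06, 6.70 and 6.65 in CP-Dox tumours. The CP-Dox values lay below all values of both other groups, although CP-Dox replicate 2 (7.06) came close to the lowest Dox tumour (7.07). On the log2 scale the difference from PBS was -0.91 ± 0.15 (SE, limma adjusted p = 0.00841). Its dim second probe set, with a mean of 4.40, gave -0.02 (limma adjusted p = 0.965).

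Timm13, the partner of Timm8a1, read 11.36, 11.21, 11.42 and 11.71 in PBS tumours, 11.16, 11.08, 11.33 and 11.24 in Dox tumours, and 10.95, 11.13, 10.97 and 11.02 in CP-Dox tumours. CP-Dox and PBS did not overlap, and the Dox values reached into both ranges. Against PBS the log2 fold change was -0.41 ± 0.11 (SE, limma adjusted p = 0.0483), and the call held in 2 of the 12 fits that left out 1 array. Timm10, the partner of Timm9, gave -0.46 ± 0.14 (limma adjusted p = 0.0861). Chchd4, the oxidoreductase that traps small TIM proteins by forming their disulphide bonds, gave -0.44 ± 0.16 (limma adjusted p = 0.133). The other 3 genes of the role, Timm8b, Timm10b and Timm8a2, did not pass, and Timm8a2 lay near the bottom of the array at 3.36 to 3.61 in all tumours.

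**Figure D2:**
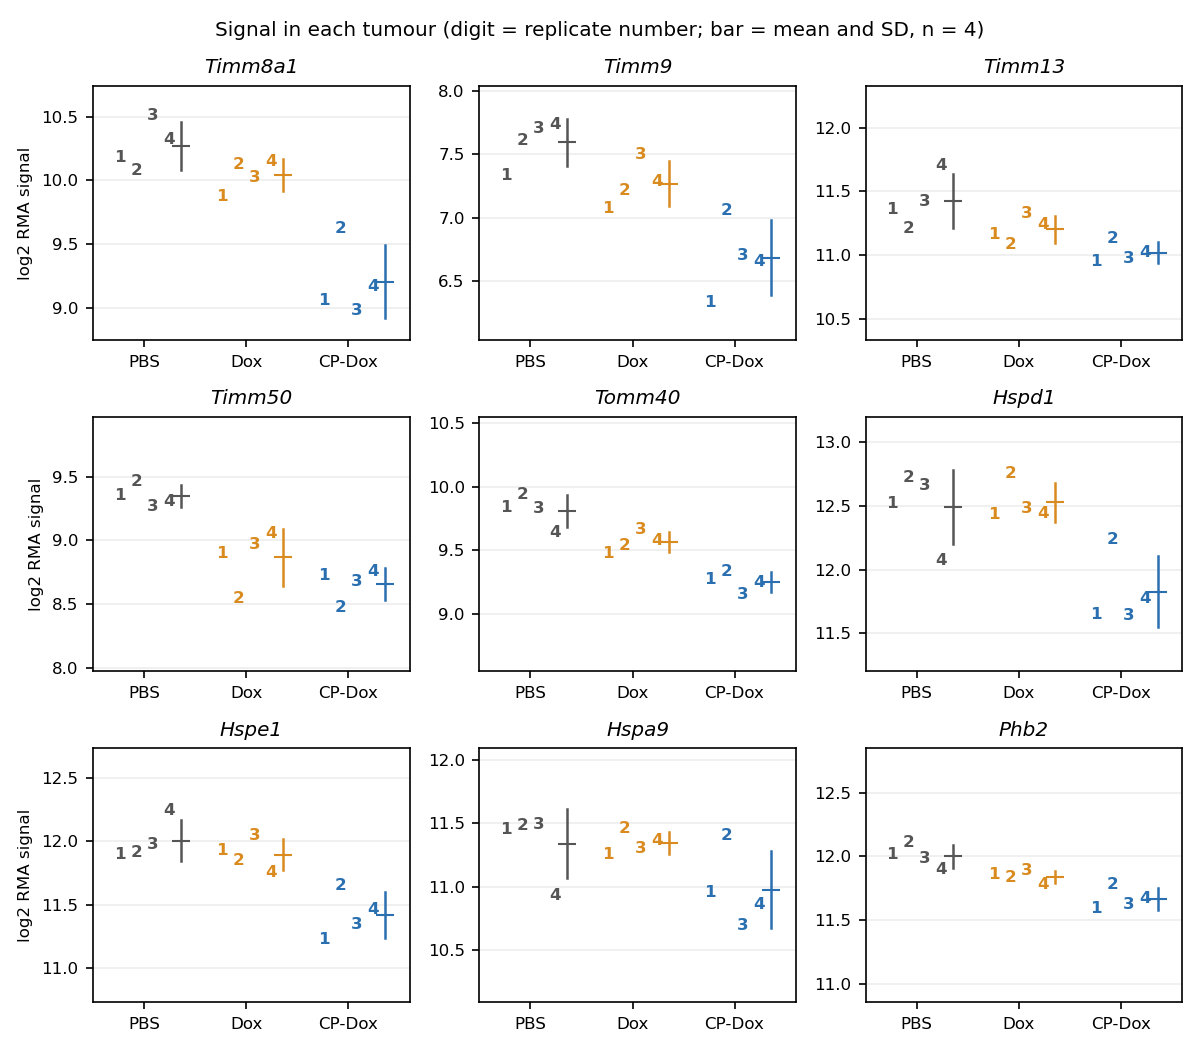
Log2 signal of 9 genes in each tumour, by group (digits are replicate numbers, bars the mean and SD of 4 tumours). CP-Dox replicate 2 is the highest CP-Dox tumour in Timm8a1 (9.62) and Hspd1 (12.24), and PBS replicate 4 is the lowest PBS tumour in Hspd1 (12.08) and Hspa9 (10.93).

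In the outer membrane, 1 of 7 TOM genes fell. Tomm40 forms the channel itself. It read 9.84, 9.94, 9.83 and 9.64 in PBS tumours, 9.48, 9.54, 9.66 and 9.58 in Dox tumours, and 9.27, 9.34, 9.15 and 9.25 in CP-Dox tumours. Every CP-Dox tumour lay below every tumour of both other groups, and the spread within CP-Dox was narrow. CP-Dox differed from PBS by a log2 fold change of -0.56 ± 0.08 (SE, limma adjusted p = 0.00497). The receptors Tomm20 and Tomm70a, which recognise targeting signals, gave smaller values on their brightest probe sets, and neither passed. Tomm20, at the 99.5th percentile of signal, gave -0.21 ± 0.09 (limma adjusted p = 0.184), and Tomm70a -0.13 ± 0.10 (limma adjusted p = 0.458). Further Tomm20 probe sets ran from -0.48 to -0.29, with a lowest limma adjusted p of 0.056. The 7 TOM genes, among them Tomm34, a cytosolic co-chaperone that the naming rule brings in, ran from -0.56 to -0.13.

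In the inner membrane, 1 of 7 genes of the TIM23 translocase and its motor fell. Timm50 is the receptor that hands presequences from the TOM side to the TIM23 channel. It read 9.35, 9.46, 9.27 and 9.31 in PBS tumours, 8.90, 8.54, 8.97 and 9.05 in Dox tumours, and 8.73, 8.47, 8.67 and 8.75 in CP-Dox tumours. Both treated groups lay wholly below PBS and overlapped each other, with replicate 2 the lowest of each. The log2 fold change of CP-Dox against PBS was -0.69 ± 0.11 (SE, limma adjusted p = 0.00749).

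The rest of this machinery did not pass the test. Timm23, the channel, gave -0.20 ± 0.09 (limma adjusted p = 0.211), and Timm44, which tethers the motor to the channel, -0.18 ± 0.09 (limma adjusted p = 0.243). Hspa9, the motor's HSP70, read 11.45, 11.48, 11.49 and 10.93 in PBS tumours, 11.26, 11.46, 11.30 and 11.36 in Dox tumours, and 10.96, 11.40, 10.69 and 10.86 in CP-Dox tumours. PBS replicate 4 lay among the CP-Dox values and CP-Dox replicate 2 near the other PBS values, and the log2 fold change was -0.36 ± 0.16 (limma adjusted p = 0.201). The carrier translocase had 2 genes measured and neither passed, Timm22 at -0.17 ± 0.10 (limma adjusted p = 0.307) and Timm29 at 0.13 ± 0.10 (limma adjusted p = 0.438), the only positive sign among the 34 genes.

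In the matrix, 2 of 3 folding chaperones fell, both partners of the chaperonin. Hspd1 forms the barrel in which proteins fold, and Hspe1 its lid. The pair lies head to head on chromosome 1: 215 bases separate the start of Hspe1 from 1 of 2 annotated Hspd1 starts. That interval is printed because both genes fell and share it. It is chr1:55087933-55088147 on the plus strand of GRCm38.p6, from RefSeq, read toward Hspe1, and capitals mark a run of heat shock element letters, TTCNNGAA and GAANNTTC in alternation, each sharing 3 bases with the next.
Hspd1-Hspe1: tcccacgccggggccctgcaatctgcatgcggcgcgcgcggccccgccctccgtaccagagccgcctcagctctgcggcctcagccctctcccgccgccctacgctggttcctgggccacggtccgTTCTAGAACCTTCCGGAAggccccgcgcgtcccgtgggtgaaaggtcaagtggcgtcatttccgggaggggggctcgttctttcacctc

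Hspd1 read 12.52, 12.72, 12.66 and 12.08 in PBS tumours, 12.44, 12.76, 12.48 and 12.44 in Dox tumours, and 11.65, 12.24, 11.64 and 11.78 in CP-Dox tumours. CP-Dox replicate 2 lay above PBS replicate 4, so these groups overlapped, whereas every CP-Dox tumour lay below every Dox tumour. The log2 fold change against PBS was -0.67 ± 0.17 (SE, limma adjusted p = 0.0407), and the call held in 3 of the 12 fits that left out 1 array.

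Hspe1 read 11.89, 11.91, 11.97 and 12.24 in PBS tumours, 11.93, 11.85, 12.04 and 11.75 in Dox tumours, and 11.23, 11.65, 11.34 and 11.46 in CP-Dox tumours. All CP-Dox values lay below all others, and Dox and PBS overlapped. The log2 fold change against PBS was -0.58 ± 0.11 (SE, limma adjusted p = 0.0163), lost without CP-Dox replicate 1 or 3, where the highest adjusted p was 0.0576. Trap1, the mitochondrial HSP90, gave -0.11 ± 0.10 (limma adjusted p = 0.539), with an interval from -0.33 to 0.11.

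None of the 4 proteases passed, and their median was -0.05. Clpp, the proteolytic chamber of ClpXP, read 10.08, 9.91, 10.01 and 10.21 in PBS tumours, 9.79, 9.55, 9.96 and 9.94 in Dox tumours, and 9.65, 9.84, 9.53 and 9.58 in CP-Dox tumours. CP-Dox lay wholly below PBS, at -0.40 ± 0.11 (limma adjusted p = 0.0596), and a second Clpp probe set gave -0.58 (limma adjusted p = 0.00876). Its unfoldase partner Clpx gave -0.01 ± 0.21 (limma adjusted p = 0.977), and Lonp1, the main soluble matrix protease, -0.09 ± 0.15 (limma adjusted p = 0.73). The intervals, -0.47 to 0.44 for Clpx and -0.42 to 0.23 for Lonp1, leave room for changes of the size seen in Clpp.

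Both subunits of the presequence peptidase lay below PBS in all CP-Dox tumours without passing: Pmpca at -0.28 ± 0.08 (limma adjusted p = 0.0684) and Pmpcb at -0.35 ± 0.10 (limma adjusted p = 0.0738). Phb2, which with Phb builds ring scaffolds in the inner membrane, read 12.01, 12.11, 11.98 and 11.89 in PBS tumours, 11.86, 11.83, 11.89 and 11.78 in Dox tumours, and 11.59, 11.78, 11.62 and 11.67 in CP-Dox tumours. The CP-Dox values lay below PBS with little spread in either group. This gave a log2 fold change of -0.33 ± 0.08 (SE, limma adjusted p = 0.0277), and the call held in 6 of the 12 fits that left out 1 array.

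**Figure D3:**
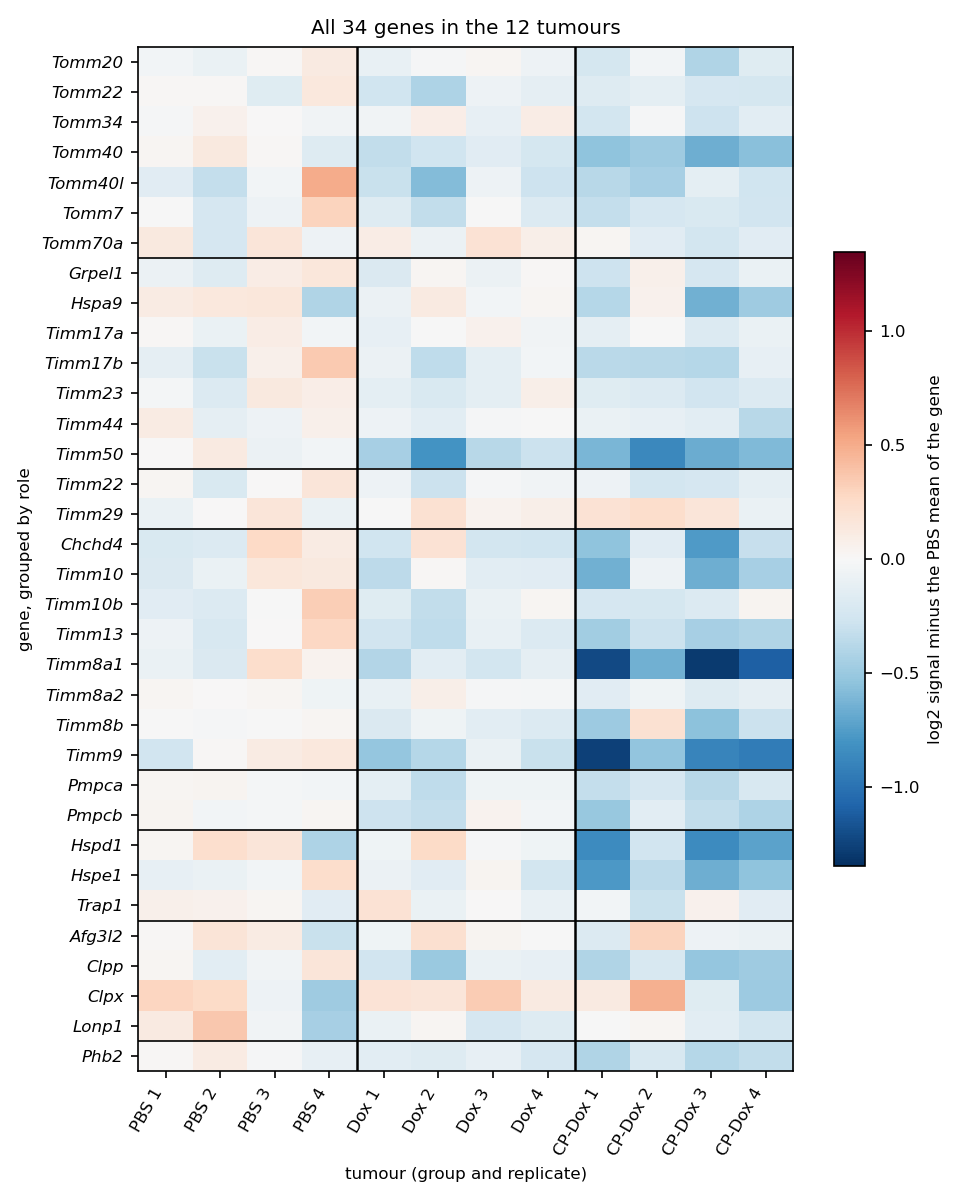
Log2 signal of the 34 genes in the 12 tumours minus each gene's PBS mean, grouped by role. CP-Dox replicate 2 is the highest CP-Dox tumour for 23 of 34 genes, and PBS replicate 4 is the lowest PBS tumour for 11 genes and the highest for 13. The shares among all genes were not counted.

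Free Dox called no gene. Against PBS, 0 of the 34 genes passed, as did 0% of all genes, and at an unadjusted p under 0.05 limma gave 3 of the 34 and 558 of all genes. The sign was negative for 26 of the 34 genes (76.5%), against 48.6% of all genes, with a median of -0.13 against 0.00457. In mitochondrial ribosomal protein genes and oxidative phosphorylation subunits the share was larger, at 87.8% and 89.9%. Dox lay wholly below PBS for Timm50, Phb2, Pmpca and Timm8b (11.8%, against 2.13% of all genes). Other probe sets of Phb2 gave -0.01 and -0.05 for Dox against PBS, where the brightest gave -0.16. The other Pmpca probe set gave -0.02, where the brightest gave -0.15. The largest value belonged to Timm50, at -0.48 ± 0.11 with a 95% interval from -0.73 to -0.23, followed by Timm9 at -0.32 ± 0.15, for which the interval ran from -0.66 to 0.01. Hspd1 stood at 0.03 ± 0.17 and its interval from -0.33 to 0.40 is wide. Both treatments were set against the same 4 PBS tumours, so their fold changes are not independent. The Dox mean lay between the PBS and CP-Dox means for 23 of the 34 genes, and the share among all genes was not counted. For the 8 genes that fell after CP-Dox this held in 7, all but Hspd1. Those 8 were picked for a wide gap between CP-Dox and PBS, which favours a Dox mean in between. No effect of Dox is read from these counts.

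CP-Dox and Dox were then compared directly, at the same time point. Only Timm8a1 was lower after CP-Dox, at -0.84 ± 0.14 (limma adjusted p = 0.0499), and 0 genes were higher; among all genes 0.169% were lower and 0.0565% higher. Leaving out any array except PBS replicate 3 or CP-Dox replicate 2 lost that call. Without CP-Dox replicate 2 the count was 8 of the 34, where 4.51% of all genes were called lower. In 5 of the 34 genes (and in 6.34% of all genes) every CP-Dox tumour lay below every Dox tumour: Timm8a1, Timm9, Tomm40, Hspd1 and Hspe1. Hspd1 gave -0.70 ± 0.17 (limma adjusted p = 0.101) with an interval from -1.07 to -0.34, and Hspe1 -0.47 ± 0.11 (limma adjusted p = 0.105) with an interval from -0.72 to -0.22. Timm50 gave -0.21 ± 0.11 (limma adjusted p = 0.387), with an interval from -0.46 to 0.04.

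The values can be set beside other mitochondrial genes. Of 74 mitochondrial ribosomal protein genes 7 fell after CP-Dox and 0 rose, with a median of -0.26. Of 79 oxidative phosphorylation subunits 2 fell, Cyc1 at -0.49 ± 0.08 (limma adjusted p = 0.00759) and Atp5b at -0.38 ± 0.09 (limma adjusted p = 0.0398), and Cox6b2, a testis-type subunit, rose by 0.69 ± 0.17 (limma adjusted p = 0.0397), with a list median of -0.13. Of 14 genes taken as measures of mitochondrial content 1 fell, the citrate cycle enzyme gene Idh3a at -0.57 ± 0.10 (limma adjusted p = 0.0109), with a median of -0.06. Most genes of these lists also had a negative sign after CP-Dox, at 91.9%, 88.6% and 71.4% in this order. Differences between these lists were not tested. The mean of the 34 genes lay at -0.36, -0.16, -0.39 and -0.33 in CP-Dox replicates 1 to 4 relative to the PBS mean, and between -0.04 and 0.04 in PBS tumours. Skin markers were not raised in CP-Dox replicate 2 (0.12), where the mean of the 34 genes was -0.165, or in CP-Dox replicate 4 (-0.17), where it was -0.33. The lowest Dox tumour, replicate 1, had a mean of -0.155. Raised skin markers were found only in CP-Dox tumours, so skin content and treatment cannot be told apart in those tumours. Fits with the skin, muscle or proliferation marker mean as a covariate were made, and their counts are given below. They changed which genes were called, but the size of the part of each marker set in these values was not tested.

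**Figure D4:**
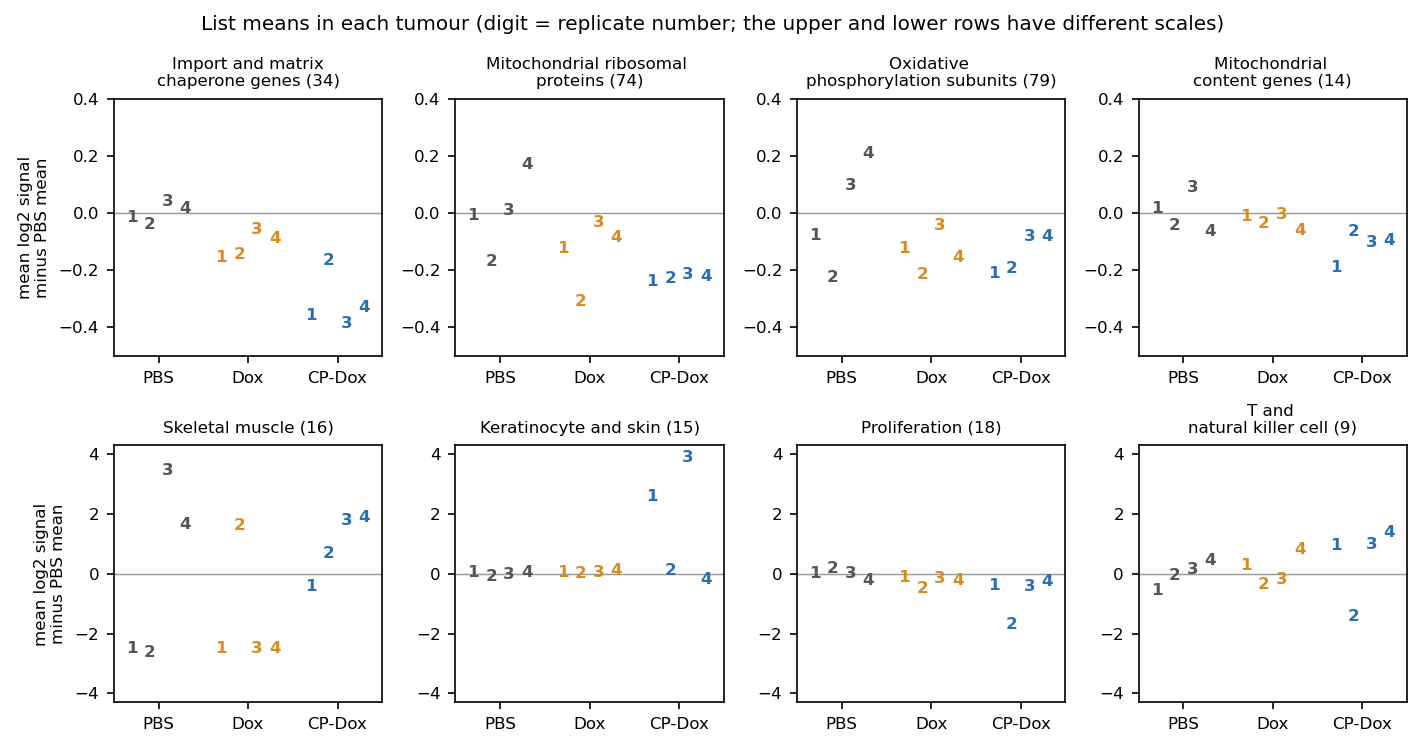
Mean log2 signal of gene lists in each tumour minus the PBS mean (digits are replicate numbers, list sizes in brackets; the upper and lower panels have different scales). The 34 genes lie between -0.39 and -0.16 in CP-Dox tumours, while skin markers reach 3.88 in CP-Dox replicate 3 and muscle markers 3.46 in PBS replicate 3.

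Among related factors outside the naming rule, rises were called only in the list of mitochondrial stress response factors. Of 19 other import and assembly factors 1 fell (5.26%, against 3.23% of all genes) and 0 rose, and 84.2% had a negative sign. The fallen gene was Dnajc15, a J-protein partner of the import motor, at -0.61 ± 0.12 (limma adjusted p = 0.0204). Of 12 other mitochondrial peptidases 0 passed, the lowest p belonging to the aminopeptidase gene Lap3 at 0.56 ± 0.19 (limma adjusted p = 0.11). Of 15 mitochondrial stress response factors 2 rose (13.3%, against 2.35% of all genes) and 1 fell (6.67%, against 3.23%). Sesn2, a stress-induced sestrin, rose by 0.80 ± 0.16 (limma adjusted p = 0.0179), and Ddit3, which encodes the transcription factor CHOP, by 0.56 ± 0.14 (limma adjusted p = 0.0383). Tfam, which packages mitochondrial DNA, fell by 0.35 ± 0.08 (limma adjusted p = 0.0343). Atf5 and Atf4 of the same list were not called, at -0.52 ± 0.28 (limma adjusted p = 0.276) and -0.36 ± 0.17 (limma adjusted p = 0.234).

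Other probe sets gave the same sign. For the 19 genes with more than 1 probe set, all 32 further probe sets had the sign of the brightest one in CP-Dox against PBS. The second Timm8a1 probe set gave -1.06 (limma adjusted p = 0.00876) and the second Hspe1 probe set -0.55 (limma adjusted p = 0.00898). A further Tomm7 probe set passed at -0.47 (limma adjusted p = 0.0464), where the brightest gave -0.25. The remaining Tomm7 probe sets did not pass, at -0.21 (limma adjusted p = 0.302) and -0.18 (limma adjusted p = 0.268). Neither further probe set of Phb2 passed, at -0.36 (limma adjusted p = 0.0581) and -0.44 (limma adjusted p = 0.0582).

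**Figure D5:**
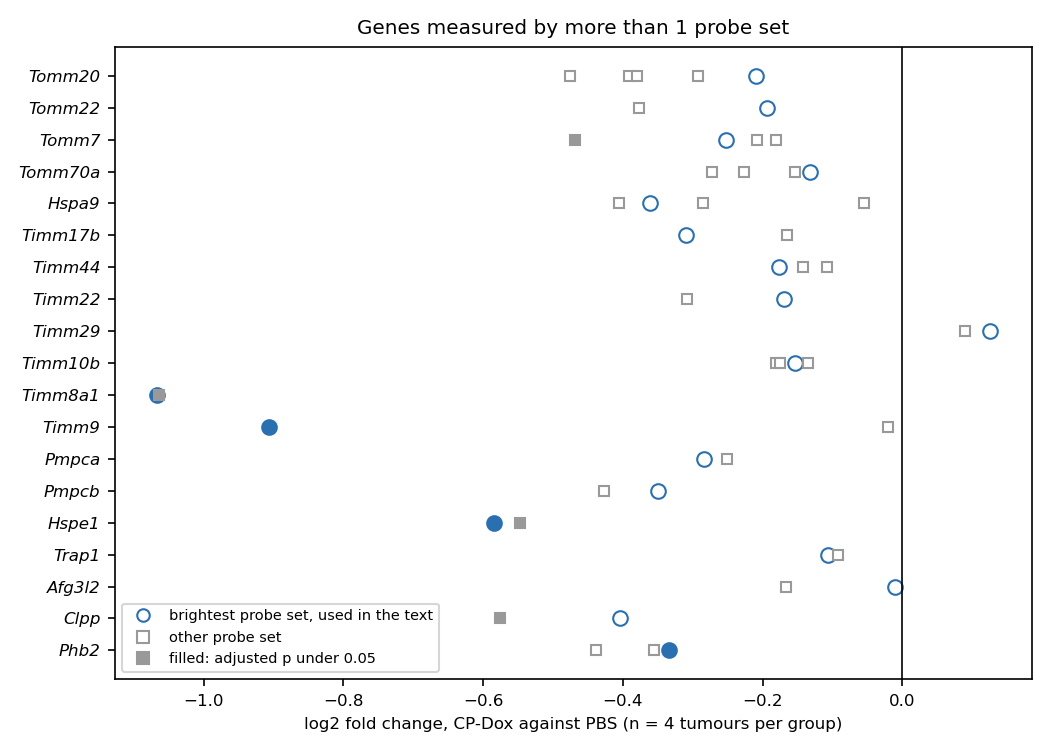
Log2 fold change of CP-Dox against PBS for every probe set of the 19 genes that have several (circles, the brightest; squares, the others; filled where the adjusted p is under 0.05). All 32 further probe sets share the sign of the brightest, and the dim second Timm9 probe set lies at -0.02.

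Upstream windows were searched for 5 motifs on both strands in RefSeq windows of 300 bases, from 250 before to 50 after each start; 30 of the 34 genes had a window. TTCNNGAA was found in 9 of 33 windows (27.3%, against 8.52% of all 32851 windows) and GAANNTTC in 3 (9.09%, against 7.86%), both in Hspd1, Hspe1 and Timm9. The E-box CACGTG stood in 6 windows (18.2%, against 7.15%), the NRF1 core CGCATGCG in 2 (6.06%, against 1.87%), and the ATF4 element TTGCATCA in 0 (0.895% of all windows). The triple overlap printed for Hspd1-Hspe1 occurs in 5 of all windows (0.0152%); it was looked for after the match had been seen. The Hspd1 and Hspe1 windows share 285 bases, so 2 of these 5 windows hold the same printed stretch, which is also counted 2 times in the shares of TTCNNGAA and GAANNTTC. These are matches of letters, not measured sites. TTCNNGAA also stood in Clpp, Timm10, Timm8a2, Tomm20 and Tomm22, which were not called lower after CP-Dox. CACGTG stood in Lonp1, Timm10 and Tomm20 and CGCATGCG in Clpx, none of them called. Timm50, Tomm40 and Phb2 fell and held none of the 5 motifs. The 3 upstream stretches below belong to fallen small TIM genes that hold a motif, each read toward its gene on the minus strand of GRCm38.p6, with heat shock element letters, CACGTG or CGCATGCG in capitals: Timm9 at chr12:71136676-71136925, Timm13 at chr10:80900970-80901219 and Timm8a1 at chrX:134541671-134541920.
Timm9: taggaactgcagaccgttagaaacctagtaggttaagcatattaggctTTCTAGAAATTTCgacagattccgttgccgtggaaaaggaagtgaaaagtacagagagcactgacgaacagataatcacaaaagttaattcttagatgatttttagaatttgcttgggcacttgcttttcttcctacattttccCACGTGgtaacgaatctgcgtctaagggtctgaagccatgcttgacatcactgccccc
Timm13: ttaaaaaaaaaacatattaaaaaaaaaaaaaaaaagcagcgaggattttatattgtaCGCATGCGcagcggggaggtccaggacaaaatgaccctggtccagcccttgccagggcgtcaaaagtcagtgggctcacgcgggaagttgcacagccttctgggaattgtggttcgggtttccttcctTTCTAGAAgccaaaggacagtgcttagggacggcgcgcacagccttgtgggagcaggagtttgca
Timm8a1: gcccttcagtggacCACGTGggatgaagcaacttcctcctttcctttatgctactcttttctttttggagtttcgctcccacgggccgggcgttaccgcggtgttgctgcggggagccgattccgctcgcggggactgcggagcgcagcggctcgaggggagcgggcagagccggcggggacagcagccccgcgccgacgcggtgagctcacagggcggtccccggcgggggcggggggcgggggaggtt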

How the data were processed

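The deposited values are log2 signals that the authors made with RMA (background correction, quantile normalization and probe summary), with Partek also named, per the submitters' processing notes (no versions or order of steps are stated there). The table held 22690 probe sets. After leaving out 64 controls, 691 with several symbols and 1555 with none, 20380 stood for 12393 genes, each read from its brightest probe set by mean over the 12 arrays. Groups came from the sample titles, which number separate mice; batches were not given, and 4 arrays per group limit the precision. All 3 comparisons were contrasts of 1 limma 3.58.1 model over 12 arrays (lmFit, eBayes, R 4.3.3), two-sided, adjusted by Benjamini and Hochberg over all genes and checked on simulated data. Named genes were those past the threshold, a fixed set of core members, the lowest p of each role, up to 3 genes of each related list, and members whose probe sets disagreed; Cyc1, Atp5b and Cox6b2 are all those called in their list. Members and lists were chosen with earlier results of these data known. Alternatives covered normalization, dim genes, probe sets, variance, array weights, groups, the block, marker covariates, the threshold and single arrays; leaving out both skin-bearing tumours and the proliferation covariate were chosen after seeing the data. Plots came from matplotlib 3.10.9 (Python 3.11.15).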

Additional observations from a re-analysis of the deposited data

Results flagged for a closer look

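In 4 of 63 groups of 4 tumours tested (20 named genes and the mean of the 34 genes, in 3 treatment groups), 1 tumour lay far from the other 3, where chance gives about 1 in 20 groups. Hspa9, the HSP70 of the import motor, read 10.93 in PBS replicate 4 against 11.45 to 11.49 in the other PBS tumours. The other cases were all Dox replicate 2, the Dox tumour with high muscle markers (1.60). Chchd4 read 8.12 there against 7.65 to 7.67, Hspd1 12.76 against 12.44 to 12.48, and Timm22 9.36 against 9.59 to 9.64. The part of muscle content in these values was not tested.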

How the results depend on the processing

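The log2 fold changes of the 8 genes lower after CP-Dox than after PBS kept their sign in all 200 values from 25 alternatives. Many of these values could not differ from the main fit. The stricter threshold, the other variance model, the compared groups alone, the replicate block and leaving out a Dox array leave this fold change as it was. The 8 genes were also picked for a negative value in these same data, so the count of 200 is not separate support. Among all named genes, 0 called values changed sign. The number of the 34 genes called lower was 8, where 3.23% of all genes were called lower. It became 16 with array weights (11% of all genes), 4 with the compared groups alone (0.912%) and 1, Timm8a1, with the skin marker covariate (0.234%). It was 7 with the muscle marker covariate (2.88%), where Hspd1 and Timm13 were lost and Chchd4 was gained. It became 4 at an adjusted p under 0.01 (0.75%), 14 with the proliferation covariate (8.59%) and 0 with both skin-bearing CP-Dox tumours left out (0.0161%). Leaving out 1 array gave 4 to 15, and the median over the 34 genes ran from -0.28 to -0.19. The share of all genes called lower ran from 1.14% to 9.17% when 1 array was left out. For CP-Dox against Dox the count was 1, and became 8 with array weights, 6 with the proliferation covariate, and 0 with the mean of all probe sets, the compared groups alone, the skin covariate, an adjusted p under 0.01 or both skin-bearing tumours left out; leaving out 1 array gave 0 to 8. In CP-Dox against Dox 8.84% of all genes were called lower with array weights and 4.83% with the proliferation covariate. The main fit called 0.169% of them lower. With both skin-bearing tumours left out the median over the 34 genes in that comparison was -0.0941. Same-numbered tumours of different groups had correlations of deviations from -0.31 to 0.51, and the best match among 4 tumours carried the same number in 12 of 24 cases. The numbers were therefore not treated as pairing, although a partial link is not excluded, and with the replicate block the counts were 8 against PBS and 0 against Dox. The causes of these shifts were not tested. Among single named genes, 113 values lost and 48 gained the threshold. Centring arrays on their medians moved the median of all genes to -0.09. The median SE of 0.13 limits which small differences could pass.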

Other observations

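PBS replicate 4 took different places among the PBS tumours. How often it was lowest or highest over all genes was not counted, so no trait of the 34 genes is read here. It was the lowest PBS tumour for 11 of them, among them Hspd1 (12.08), Hspa9 (10.93), Lonp1 (8.79), Clpx (7.71) and Afg3l2 (8.44), and the highest for 13, among them Tomm20 (13.69), Tomm7 (11.45), Timm13 (11.71), Timm9 (7.74) and Hspe1 (12.24). The chaperonin partners Hspd1 and Hspe1 thus stood at opposite ends of the PBS range in this tumour. Its mean of oxidative phosphorylation subunits (0.21) and of mitochondrial ribosomal proteins (0.17) was the highest of the PBS tumours, and its muscle markers stood at 1.67.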
